A study of Mus musculus with 2 samples.

Results

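The genes described here form the IL-12, IL-15, IL-18 and IL-27 axis: the ligand genes Il12b, Il15, Il18, Il27 and Ebi3, the receptor genes Il12rb1, Il12rb2, Il2rb and Il18r1, and Il15ra, which serves both sides. They were chosen by symbol among the mouse features of the second of 2 single-cell libraries, 10 of 33696, with ligands read in myeloid cells and receptors in lymphocytes. All 10 were detected.

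These cytokines carry signals from myeloid cells to T and NK cells. Il12b encodes the subunit that IL-12 shares with IL-23, and IL-12 acts through Il12rb1 and Il12rb2 to activate STAT4 and interferon gamma. IL-15 is held on the surface of the cell that makes it by Il15ra and is presented to Il2rb and the common gamma chain Il2rg on NK and CD8 T cells, which need it to survive. IL-18 is cut to its active form by caspase-1, is sequestered by the binding protein Il18bp, and signals through Il18r1 and Il18rap. IL-27 is a dimer of the Il27 and Ebi3 products and is read by Il27ra and Il6st.

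CD45+ cells were sorted from subcutaneous tumours of MC38, a mouse colon carcinoma line, grown in mice labelled as carrying human Fc receptors, the genotype that all groups share. Mice received 2 injections, 3 days apart, of 100 µg of an antibody to mouse GITR, a costimulatory receptor of T cells, or PBS as the control. The antibody was a human IgG1 in 1 of 3 forms, and cells were taken 4 days after treatment. The forms are named GA-aFuc, GITR/Syn GA-aFuc and N297A. N297A removes the Fc glycan and with it most binding to Fc gamma receptors, and the names of the other forms are not explained in the labels. Both of those names hold GA-aFuc, so the comparison between them is not read here as one of Fc forms. Library 2 held 2 GA-aFuc mice, 2 GITR/Syn GA-aFuc mice, 1 N297A mouse and 1 Untreated mouse, out of 3 per treatment in the study. The labels give no age for the mice.

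The authors annotated 10476 cells of this library in 10 cell types and 58 clusters, with a median of 12075 UMIs (unique molecular identifiers, each a counted transcript) per cell and 17176544 to 25808043 UMIs per mouse. Markers of macrophages, CD8 T cells, Tregs, cDC1, mregDC (mature dendritic cells that express Ccr7) and pDC were all highest in the type of that name. This held for 5 of 8 monocyte markers, 5 of 6 NK markers, 3 of 4 cDC2 markers and 1 of 4 CD4 T cell markers. Of the barcodes, 34 also occur in the annotation of library 1. Replicate 1 of GA-aFuc and replicate 1 of GITR/Syn GA-aFuc had Xist at 567 and 551 CPM (UMIs per 1e6 UMIs of the same cells). In the other 4 mice Xist lay between 1.64 and 1.98 CPM, and 4 Y-linked genes were higher in them. The labels do not give the sex of the mice, and those 4 mice hold 1 mouse per treatment. Values of a pair of mice are given below as replicate 1, then replicate 2, so that the second of each pair belongs with N297A and Untreated in this respect.

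Cell types and clusters were made by the authors from these same counts, so differences between them are described without a test. Intervals in brackets are 95% exact Poisson intervals and cover counting error only. Over all mice pooled, most Il12b UMIs came from mregDC and most of those of Il15, Il18 and Il27 from macrophages and monocytes, while Il2rb, Il12rb2 and Il18r1 lay mainly in T and NK cells.

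Per cell, Il12b was concentrated in mregDC. These 55 cells, on average 0.526% of the cells of a mouse, held 855 of the 1142 Il12b UMIs, or 74.9%, at 1501 CPM [1402, 1606]. By mouse, mregDC held 68.4% ± 25.2 (mean ± SD, n = 6), from 30.9% to 91.2%. In GA-aFuc replicate 1 macrophages had more Il12b UMIs than mregDC, 51 against 30. In GITR/Syn GA-aFuc replicate 2 mregDC had 52, macrophages 33 and monocytes 29. Next came cDC1 at 21.1 CPM [12.5, 33.4], cDC2 at 3.16, macrophages at 2.51 and monocytes at 1.54. At least 1 UMI was found in 39 of 55 mregDC (70.9%, median depth 10221 UMIs), against 0 of 604 NK cells (8403 UMIs), which allows a level of up to 0.471 CPM. CD8, CD4, Treg and pDC cells also had no Il12b UMI, with limits of 0.549, 6.10, 13.7 and 13.1 CPM. Droplets with 1 to 99 UMIs, which hold free RNA, had Il12b at 2.98 CPM, a level close to those of cDC2 and macrophages.

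The upstream window of Il12b is shown because its level in 1 cell type stood furthest above that of the next. It comes from RefSeq on build GRCm38.p6, chr11:44399813-44400062 on the plus strand, the 250 bases before the annotated start.
Il12b: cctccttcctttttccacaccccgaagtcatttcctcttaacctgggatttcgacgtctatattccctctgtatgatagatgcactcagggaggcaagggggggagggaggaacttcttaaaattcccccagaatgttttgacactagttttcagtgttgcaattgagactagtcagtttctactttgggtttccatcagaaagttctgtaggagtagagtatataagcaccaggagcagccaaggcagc
None of 5 motifs searched on both strands occurred in it: a kappaB form (GGGANNNNCC, in 17.7% of 32536 mouse windows of this length), an interferon response form (GAAANNGAAA, 2.98%), an AP-1 form (TGANTCA, 6.73%), a T-box form (TCACACNT, 2.97%) and a STAT form (TTCNNNGAA, 7.04%). Only these spellings were searched.

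The partner subunit of IL-12 was nearly absent. Il12a had 28 UMIs in all annotated cells, 20 of them in monocytes, and 0 in the 55 mregDC, which allows up to 5.27 CPM. Il23a, the partner of Il12b in IL-23, had 1 UMI in mregDC and stood at 3.16 CPM in cDC2. Stat4, Il6st and Il15ra were high in mregDC too, at 1071, 77.3 and 179 CPM, and Batf3 was at 163 CPM, below the 216 CPM of cDC1.

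Within mregDC a few cells carried most of the transcript. In GITR/Syn GA-aFuc replicate 1, 258 of 340 Il12b UMIs came from 1 of 15 mregDC. In the Untreated mouse 218 of 234 came from 1 of 8, and in the N297A mouse 84 of 126 from 1 of 10. The highest cells of GA-aFuc replicates 1 and 2 and of GITR/Syn GA-aFuc replicate 2 held 14 of 30, 31 of 73 and 23 of 52 UMIs. The 2 highest of all 55 cells held more Il12b UMIs than the other mregDC together. Each mouse's highest cell had UMIs of 4 or 5 of the 5 mregDC markers and at most 724 CPM of the summed macrophage markers, which stood at 22600 CPM in macrophages.

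**Figure D1:**
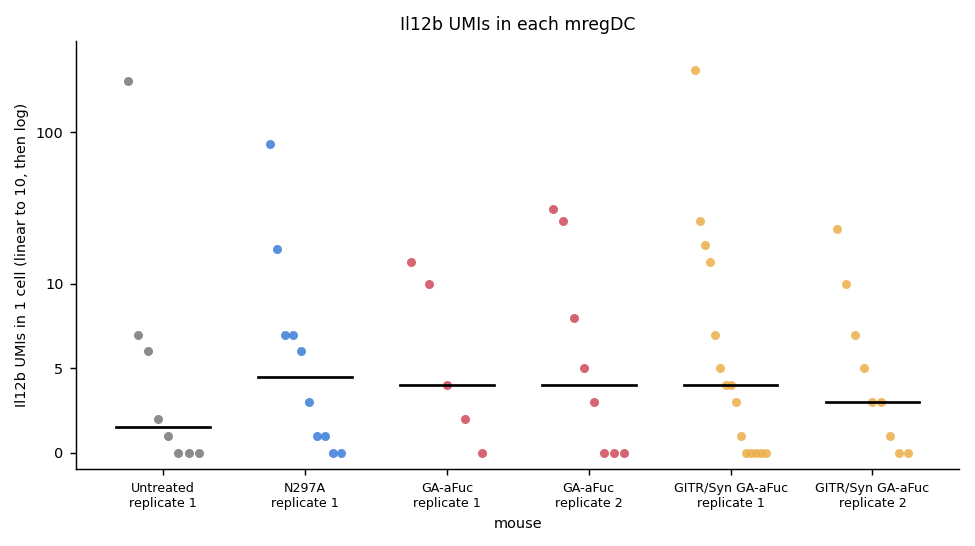
Il12b UMIs in each mregDC (vertical axis, linear to 10 and logarithmic above) by mouse (horizontal axis); each point is 1 cell and each bar the median of a mouse. Medians lie between 1.5 and 4.5 UMIs, while the single highest cell of GITR/Syn GA-aFuc replicate 1, of the Untreated mouse and of the N297A mouse reaches 258, 218 and 84.

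The level per mouse followed these cells. Il12b in mregDC was 648 and 929 CPM with GA-aFuc, 1954 and 537 with GITR/Syn GA-aFuc, 1589 with N297A and 2479 in the Untreated mouse. Without each mouse's highest cell the values were 444 and 627, 533 and 335, 616, and 201 CPM, so that the Untreated mouse went from the highest to the lowest. The median mregDC had 4 and 4, 4 and 3, 4.5 and 1.5 UMIs in the same order.

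Il15 was spread over many cells. Macrophages and monocytes held 96.6% of its UMIs and were 84.4% of the cells, at 40.2 [38.9, 41.6] and 40.0 [37.7, 42.3] CPM, 2 levels that do not differ beyond counting error. In mregDC Il15 reached 75.5 CPM [54.6, 102] on 43 UMIs, while cDC1 and cDC2 had 17.6 and 16.5 CPM and CD8 cells 2.01. Among mice, Il15 in macrophages was 43.8 and 40.6 CPM with GA-aFuc, 44.9 and 38.4 with GITR/Syn GA-aFuc, 36.2 with N297A and 36.8 in the Untreated mouse. The 4 GA-aFuc and GITR/Syn GA-aFuc mice lay above the other 2, by a log2 difference of 0.13 ± 0.14 (SE) that did not pass the test (edgeR adjusted p = 0.930).

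Il15ra, the presenting chain, was highest in mregDC, as Il15 was, but low in macrophages. Its level was 179 CPM [146, 217] in mregDC, 50.1 in Tregs, 44.8 in CD4 cells, 21.0 in CD8 cells, 18.5 in monocytes and 7.59 in macrophages. In mregDC it ran from 63.6 CPM in the Untreated mouse to 367 CPM in GA-aFuc replicate 1, on 6 to 22 UMIs per mouse.

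Il18 lay in monocytes at 47.4 CPM [44.99, 49.96] and macrophages at 39.3 CPM [37.9, 40.6], which together held 97.7% of its UMIs. Its level in cDC1 was 29.3, in cDC2 13.9 and in mregDC 8.78 CPM, so mregDC were high for Il12b and Il15 but low for Il18. The inhibitor Il18bp was found beside its ligand, at 93.6 CPM in monocytes and 82.6 in macrophages, against 3.66 in CD8 cells. Casp1 was at 78.2 and 79.4 CPM in monocytes and macrophages.

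The 2 chains of IL-27 had different ranges. Il27 was at 16.7 CPM [15.3, 18.3] in monocytes and 12.1 [11.4, 12.8] in macrophages, 98.1% of its UMIs. Ebi3 was at 56.0 CPM in macrophages, 52.7 in mregDC, 49.1 in cDC2, 42.2 in cDC1 and 33.7 in monocytes, and at 77.5 [45.1, 124] in 24 Tregs on 17 UMIs. With cells thinned to 3000 UMIs, Ebi3 was found in 28 of 187 macrophages with Il27 and in 14.4% of those without it, higher beside Il27 in 2 of 6 mice. In monocytes these shares were 12.7% and 9.65%, higher beside Il27 in 5 of 6 mice.

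**Figure D2:**
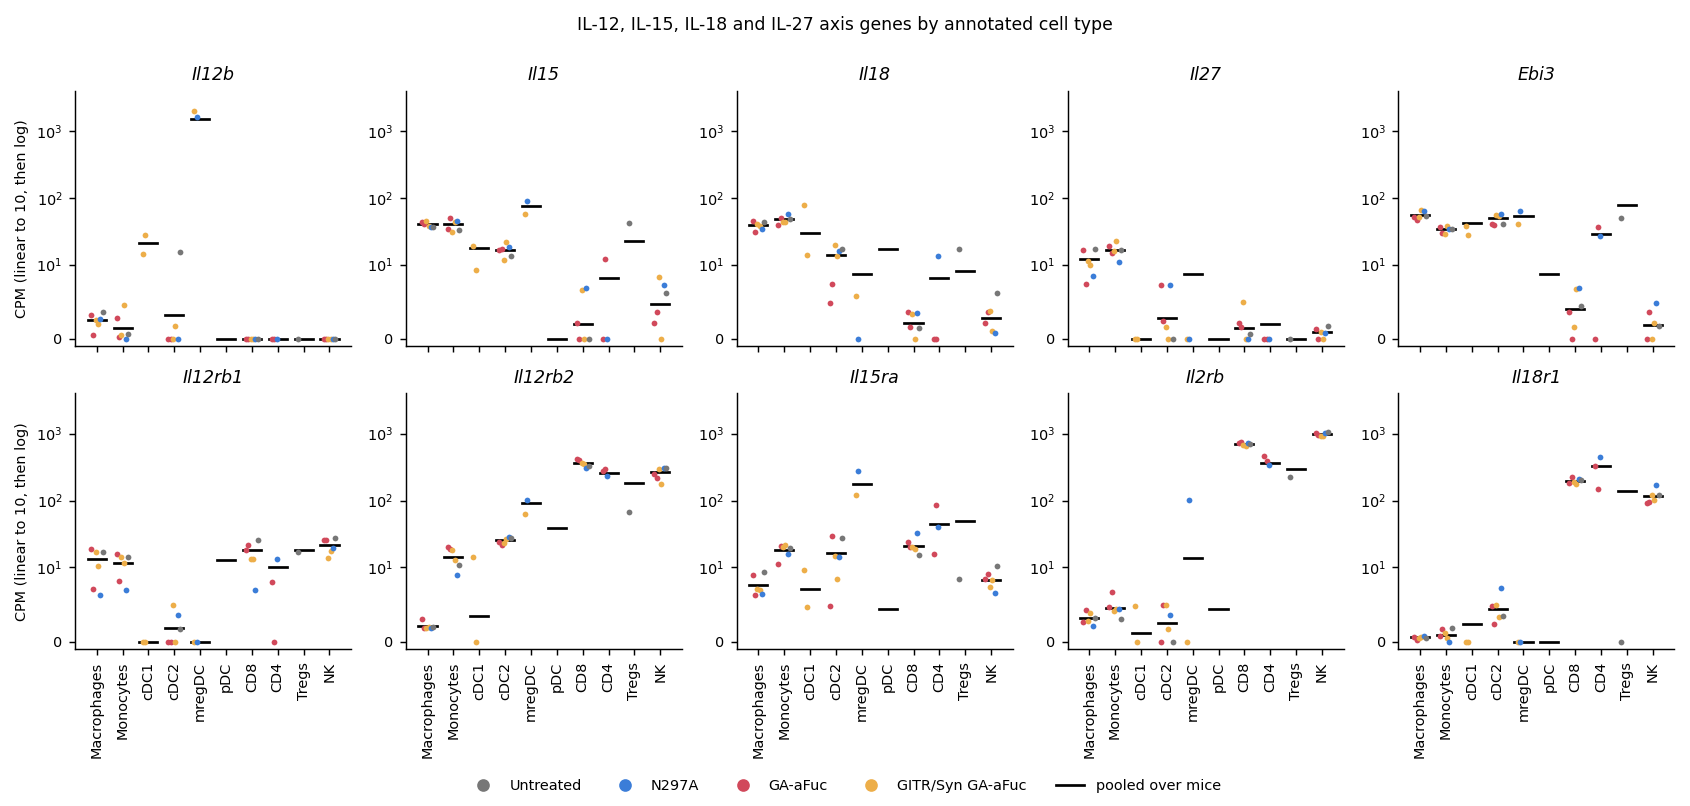
Level of each gene in CPM (vertical axis, linear to 10 and logarithmic above) by annotated cell type (horizontal axis); points are mice with at least 10 cells of that type, coloured by treatment, and bars are all mice pooled. Il12b stands at 1501 CPM in mregDC and at no more than 21.1 CPM elsewhere, and Il2rb, Il12rb2 and Il18r1 stand high in CD8, CD4, Treg and NK cells.

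Among receptors, Il2rb, the chain that reads IL-15, was highest in NK cells at 989 CPM [965, 1014], then in CD8 cells at 699.6 [678, 722], CD4 cells at 368 and Tregs at 296. T and NK cells were 11.8% of the cells and held 96.1% of its UMIs. After thinning to 3000 UMIs, 550 of 579 NK cells had an Il2rb UMI, against 54 of 5686 macrophages (99.7% and 4.44% unthinned, at median depths of 8403 and 14327 UMIs). In NK cells its level was 1029 and 948 CPM with GA-aFuc, 921 and 930 with GITR/Syn GA-aFuc, 1013 with N297A and 1050 in the Untreated mouse, a spread of 982 ± 55.4 (SD, n = 6).

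Il12rb2, the inducible chain of the IL-12 receptor, was at 366 CPM [350, 383] in CD8 cells, 265 [252, 278] in NK cells, 254 [212, 303] in CD4 cells and 182 [130, 248] in Tregs. NK and CD4 cells, neighbours in this order, do not differ beyond counting error. T and NK cells held 83.5% of its UMIs. The remainder included mregDC at 93.1 CPM, cDC2 at 25.6 and monocytes at 14.5, against 2.12 in macrophages and 21.9 in free RNA. In monocytes there were 3.18 Il12rb2 UMIs per Il2rb UMI, and in cDC2 10.1, compared with 0.523 in CD8 cells and 0.268 in NK cells.

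Il12rb1, the constant chain, had another pattern, with 85.3% of its UMIs in macrophages and monocytes, which were 84.4% of the cells. Its levels were 21.5 CPM [18.1, 25.4] in NK cells, 17.9 [14.6, 21.9] in CD8 cells, 13.2 in macrophages and 11.5 in monocytes. These levels are close together, and free RNA stood at 13.4 CPM. The dendritic types summed had only 1.87 CPM, and mregDC had 0 UMIs, which allows up to 5.27 CPM. Among them pDC had 13.1 CPM, on 3 UMIs in 27 cells. In thinned cells Il12rb2 was found in 18 of 30 CD8 cells with an Il12rb1 UMI and in 56.2% of those without, and in 19 of 38 and 51.9% of NK cells.

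Il18r1 was at 332 CPM [283, 387] in CD4 cells, 196 [185, 208] in CD8 cells, 137 [92.3, 195] in Tregs and 119 [110, 127] in NK cells, 95.6% of its UMIs. Il18rap, the second IL-18 chain, followed in CD4, CD8 and NK cells at 167, 127 and 116 CPM, but also had 30.1 CPM in cDC2 and 12.1 in monocytes, where Il18r1 was at 4.43 and 0.936 CPM. Il27ra was at 36.6, 27.8 and 19.2 CPM in CD4, CD8 and NK cells and had 0 UMIs in cDC1, cDC2 and mregDC, which allows up to 3.52, 0.949 and 5.27 CPM. Ifng, the main product of IL-12 and IL-18 signalling, was at 396 CPM in CD8 cells, 299 in CD4 cells and 50.9 in NK cells.

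The windows before Il12rb2 and Il18r1 are shown because these receptors rose and fell together over clusters, as given below. Both are RefSeq windows of 250 bases on GRCm38.p6, chr6:67376189-67376438 on the minus strand and chr1:40465302-40465551 on the plus strand, the latter before the first of 3 annotated starts. Capitals mark a match to the STAT form TTCNNNGAA, 123 to 115 bases before the Il12rb2 start.
Il12rb2: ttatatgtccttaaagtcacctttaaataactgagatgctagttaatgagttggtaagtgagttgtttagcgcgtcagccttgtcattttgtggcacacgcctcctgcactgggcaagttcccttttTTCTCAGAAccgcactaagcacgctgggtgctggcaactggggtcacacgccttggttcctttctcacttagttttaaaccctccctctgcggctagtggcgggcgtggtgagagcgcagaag
Il18r1: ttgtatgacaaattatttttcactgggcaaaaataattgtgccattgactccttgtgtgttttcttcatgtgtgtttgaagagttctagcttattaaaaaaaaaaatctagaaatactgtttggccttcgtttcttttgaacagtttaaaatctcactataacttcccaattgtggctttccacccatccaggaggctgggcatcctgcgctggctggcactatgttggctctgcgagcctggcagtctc
This Il18r1 window had no match to any of the 5 motifs. The window before the third Il18r1 start, not shown, had 2 matches to the STAT form, TTCTGGGAA and TTCCCAGAA, 219 to 211 and 152 to 144 bases before that start. RefSeq windows were matched for 6 of the 10 genes, and not for Il12rb1, Il15, Il2rb and Il27.

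The authors' clusters divided these cell types further. Over the 50 clusters of at least 50 cells, Pearson's r between log2(CPM + 1) values was 0.87 for Il15 and Il18, 0.84 for Il12rb2 and Il18r1, 0.93 for Il2rb and Il18r1 and 0.65 for Il27 and Ebi3. Clusters share a library and differ in depth, so these values are descriptions.

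Monocyte clusters 27 and 49 had the highest Il15 and Il18 of all 50. They are 266 of 3119 monocytes and 7.11% to 9.27% of the monocytes of each mouse, with monocyte markers high in both. Il15 there was 176 ± 66.1 CPM (mean ± SD, n = 6 mice) against 29.1 ± 5.0 in other monocytes, and Il18 156.8 ± 33.2 against 38.8 ± 5.5. By mouse, Il15 in these clusters was 106 and 191 CPM with GA-aFuc, 99.9 and 259 with GITR/Syn GA-aFuc, 238 with N297A and 162 in the Untreated mouse, above the other monocytes in every mouse. The groups overlap.

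Other genes of the axis differed there too. Il15ra was at 48.1 CPM against 16.4 in the other monocytes, Il12rb2 at 40.3 against 12.6 and Il27 at 27.01 against 15.97. Il12rb2 was higher there in 6 of 6 mice, and Il15ra and Il27 in 5 of 6. Ebi3, in contrast, was at 17.2 against 34.96 and lower in 6 of 6 mice, and Il12b had 0 UMIs. The genes whose cluster pattern was most like that of Il15 were Ifi204, Cds1 and Stom, and for Il18 they were Ifi204, Ifi207 and Pde7b. Ifi204 and Ifi207 are interferon-inducible genes. The median depth of the 266 cells was 7530 UMIs, against 9219 in other monocytes, and its part in these differences was not tested.

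**Figure D3:**
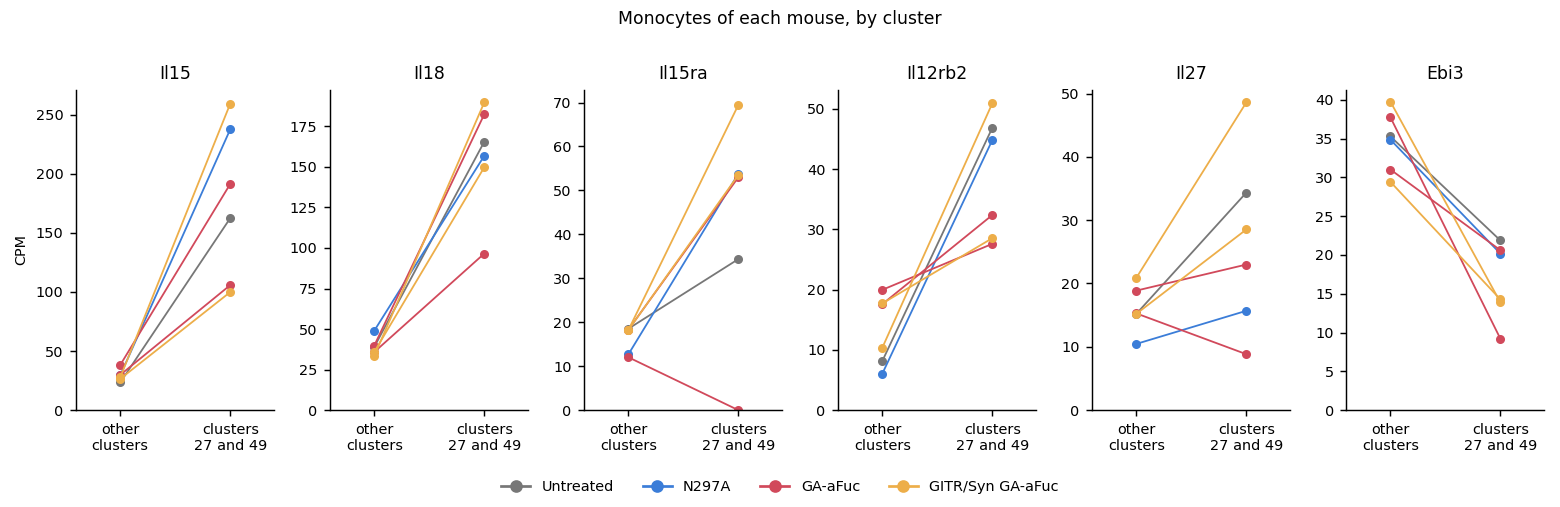
Level in CPM (vertical axis) of 6 genes in monocyte clusters 27 and 49 and in the other monocyte clusters (horizontal axis); each line is 1 mouse, coloured by treatment. Il15 and Il18 are higher in clusters 27 and 49 in all 6 mice, and Ebi3 is lower in all 6.

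In macrophages, cluster 3 (361 cells) had Il15 at 97.7 CPM against 36.5 in other macrophages, with Il18 at 60.6 against 37.9 and Ebi3 at 54.6 against 56.1. The median depths were 14044 and 14367 UMIs. Cluster 15 (279 cells) had the highest Ebi3 of all 50 clusters, at 83.1 CPM, and the highest Il12b of any macrophage cluster, at 19.96 CPM, with Il15 at 25.4. Of the 213 Il12b UMIs of all macrophages 45 came from 1 cell, so the Il12b level of a macrophage cluster can rest on few cells.

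NK cells split by receptor level. Clusters 19 and 26 had Il12rb2 at 532 CPM against 167 in the other NK clusters, Il18r1 at 258 against 67.8 and Il2rb at 1219 against 905. Il12rb2 was higher in them in 6 of 6 mice, with a mean of 522 ± 115 CPM against 163 ± 32.0 (SD, n = 6). These clusters were at least 39.2% of each mouse's NK cells. Their median depth was 4771 UMIs, against 14882 in the other NK cells, and its part in the difference was not tested. CD8 cluster 16 (174 cells) had Il12rb2 at 517 CPM and Il18r1 at 261, against 309 and 172 in the other CD8 cells, at median depths of 7969 and 8726 UMIs.

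**Figure D4:**
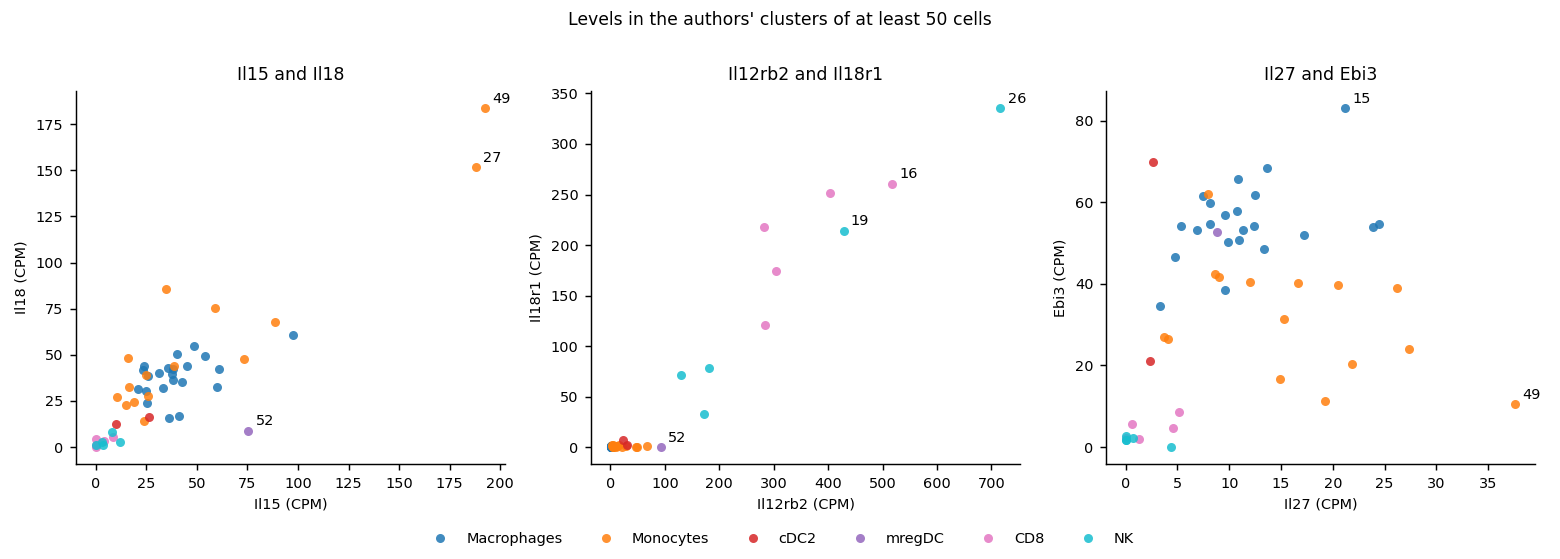
Levels in CPM of 3 gene pairs in the 50 clusters of at least 50 cells; each point is 1 cluster, coloured by cell type, and numbers name clusters. Monocyte clusters 27 and 49 stand apart for Il15 and Il18, and NK cluster 26 is highest for both Il12rb2 and Il18r1.

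The genes most like each receptor over clusters were Il18rap, Nabp1 and Satb1 for Il12rb2 (highest r 0.94), Gzmb, Nkg7 and Sytl2 for Il2rb (0.99) and Zfp831, Tigit and Gimap8 for Il18r1 (0.97). Gzmb and Nkg7 encode proteins of cytotoxic granules. For ligands, the most like gene was 1810064F22Rik for Il12b (0.80), Coa5 for Il27 (0.88) and Rgs10 for Ebi3 (0.94). It was Fam3c for Il12rb1 (0.77) and Gm36043 for Il15ra (0.77).

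Treatments were compared on counts summed per mouse in macrophages, monocytes, CD8 cells, NK cells and all dendritic cells, with edgeR. The N297A and Untreated mice have no replicate and are assumed to vary like the others. The spread within treatments thus comes from the GA-aFuc and GITR/Syn GA-aFuc pairs. In each pair replicate 1 has Xist and replicate 2 has Y-linked transcripts, so this spread and that split cannot be told apart. In the dendritic sum, fewer cells of a subtype and less RNA per cell cannot be told apart. The 10 genes passed the filter on low counts in 36 gene and class pairs: 10 in macrophages, 9 in monocytes, 7 in dendritic cells, 5 in CD8 cells and 5 in NK cells.

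No gene of the axis passed at an adjusted p under 0.05 in any comparison. For GA-aFuc against Untreated 0 of 36 passed, where 0.0512% of all pairs did, and 3 (8.33%, against 4.70% of all pairs) had an unadjusted p under 0.05. For GA-aFuc against N297A 0 of 36 passed (background 0.144%), with 4 at an unadjusted p under 0.05 (11.1%, against 5.67% of all pairs). For GITR/Syn GA-aFuc against GA-aFuc the count was 0 of 36 (background 0.0493%), with 1 unadjusted (2.78%, against 4.36%). For both of these treatments against N297A and Untreated it was 0 of 36 (background 0.131%), with 4 unadjusted (11.1%, against 6.15%). The median log2 differences of the 36 pairs were -0.10, 0.06, -0.03 and 0.00, beside 0.01, 0.02, 0.00 and 0.02 over all pairs. DESeq2 also called 0 of them in each comparison. The 4 comparisons all use the GA-aFuc mice, and the last reuses the N297A and Untreated mice, so they are not independent.

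Il12rb2 in monocytes and Ebi3 in dendritic cells had an unadjusted p under 0.05 in 3 of the 4 comparisons, which share mice. In monocytes the level of Il12rb2 was 20.4 and 18.7 CPM with GA-aFuc, 18.4 and 13.1 with GITR/Syn GA-aFuc, 8.99 with N297A and 10.7 in the Untreated mouse. All 4 mice of the first 2 treatments lay above the other 2. This fixes the same order among the 4 mice with Y-linked transcripts, which is therefore no separate check. Free RNA had Il12rb2 at 21.9 CPM [18.7, 25.6], above each of these monocyte values, while macrophages had 2.12 CPM. The part of free RNA in the result was not tested. The log2 difference of both treatments against N297A and Untreated was 0.79 ± 0.20 (SE, 95% interval 0.36 to 1.22) with an edgeR adjusted p of 0.156. Against N297A alone, GA-aFuc differed by 1.06 ± 0.28 (edgeR adjusted p = 0.152), and against Untreated by 0.83 ± 0.28 (adjusted p = 0.532). The first difference lay between 0.70 and 0.88 when any 1 of the 4 GA-aFuc and GITR/Syn GA-aFuc mice was left out.

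Summed CD8 T cell markers in monocytes were 14.2 and 10.1, 10.5 and 9.50, 9.33 and 11.9 CPM in the same order of mice, and summed NK markers 140 and 94.2, 135 and 143, 109 and 155 CPM. Their part in the result was not tested. Outside clusters 27 and 49 the treatments again did not overlap for Il12rb2, at 19.96 and 17.6, 17.7 and 10.4, 6.05 and 8.16 CPM, while within them they did, at 27.6 and 32.4, 28.5 and 50.9, 44.8 and 46.8 CPM. In CD8 cells Il12rb2 was 421 and 409 CPM with GA-aFuc, 365 and 356 with GITR/Syn GA-aFuc, 303 with N297A and 325 in the Untreated mouse. The treatments do not overlap there either, but the log2 difference of 0.31 had an interval of -0.03 to 0.65 (edgeR adjusted p = 0.999). In NK cells the same difference was -0.32 (interval -0.67 to 0.04, adjusted p = 0.583). Among the 36 pairs, only Il12rb2 in monocytes and CD8 cells, Ebi3 in dendritic cells and Il15 in macrophages separated both treatments from N297A and Untreated. The share of all genes that separate in this way was not counted. These separations are therefore a description and not a result about the axis.

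**Figure D5:**
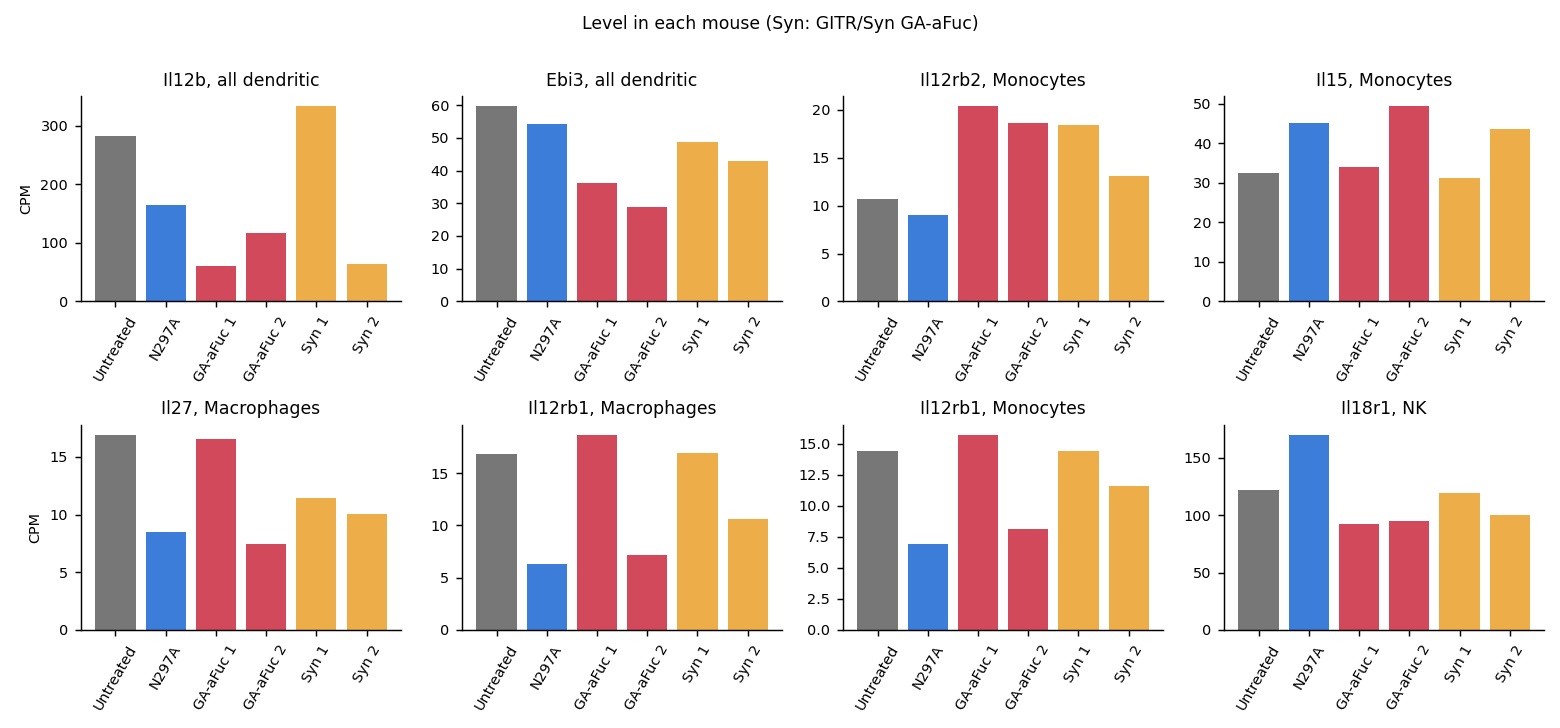
Level in CPM (bars from 0, vertical axis) in each mouse (horizontal axis, coloured by treatment) for 8 gene and class pairs. Il12rb2 in monocytes is at 13.1 to 20.4 CPM in the 4 GA-aFuc and GITR/Syn GA-aFuc mice and at 8.99 and 10.7 in the others, while Il12rb1 and Il27 in macrophages differ within a treatment.

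Il12b in the dendritic sum was 60.2 and 117 CPM with GA-aFuc, 334 and 63.5 with GITR/Syn GA-aFuc, 164 with N297A and 282 in the Untreated mouse. GA-aFuc lay below Untreated by a log2 difference of -1.69 ± 0.62 (edgeR adjusted p = 0.652), and the GITR/Syn GA-aFuc mice lay on both sides. Without the 1 cell of each mouse that held most Il12b the difference was 0.69 (adjusted p = 0.852), with the opposite sign. With all other cells kept, it stayed negative, between -2.25 and -1.30, when either GA-aFuc mouse or either GITR/Syn GA-aFuc mouse was left out. mregDC were 10.6% and 13.8%, 18.1% and 12.5%, 13.9% and 12.1% of the dendritic cells in the same order, on 5 to 15 cells.

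Ebi3 in dendritic cells was 36.1 and 28.8 CPM with GA-aFuc, 48.6 and 43.0 with GITR/Syn GA-aFuc, 54.2 with N297A and 59.7 in the Untreated mouse. The first 4 lay below the last 2, by a log2 difference of -0.57 ± 0.22 (edgeR adjusted p = 0.764). GA-aFuc against Untreated gave -0.90 ± 0.31 (adjusted p = 0.620). In mregDC alone, Ebi3 rested on 1 to 14 UMIs per mouse.

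Il18r1 in NK cells was 92.1 and 95.2 CPM with GA-aFuc, 119 and 100.4 with GITR/Syn GA-aFuc, 170 with N297A and 122 in the Untreated mouse. The N297A mouse was the highest, and GA-aFuc differed from it by -0.83 ± 0.20 on the log2 scale (edgeR adjusted p = 0.382). Clusters 19 and 26, which are high for Il18r1, were 50.4% and 55.1%, 47.3% and 39.2%, 60% and 56.2% of the NK cells in the same order of mice, and their part in this difference was not tested. Il18r1 in CD8 cells showed no such order, at 185 and 223, 192 and 178, 208 and 203 CPM. Both treatments against N297A and Untreated gave -0.46 ± 0.15 in NK cells (adjusted p = 0.330). In CD8 cells Il12rb1 differed between GA-aFuc and N297A by 1.499 ± 0.64 (adjusted p = 0.995), at 18.1 and 21.8 against 6.92 CPM, while the Untreated mouse had 25.5. Il12b in monocytes had 11 and 1, 2 and 29, 0 and 3 UMIs per mouse, values that overlap between treatments, and both treatments against N297A and Untreated gave 3.97 ± 1.62 (edgeR adjusted p = 0.502). This difference passed with the Xist split as a term (4.195, adjusted p = 0.0308) and with no filter on low counts (adjusted p = 0.00515). Those settings called 560 of 52716 and 694 of 105320 pairs over all genes, against 69 of 52716 in the reported fit. Without GA-aFuc replicate 2 the difference was 4.47. Of the 46 monocyte Il12b UMIs, 36 came from 3 cells, 1 in GA-aFuc replicate 1 and 2 in GITR/Syn GA-aFuc replicate 2.

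Il27 and Il12rb1 in macrophages varied as much between mice of 1 treatment as between treatments. Il27 was 16.6 and 7.44 CPM with GA-aFuc, 11.4 and 10.04 with GITR/Syn GA-aFuc, 8.44 with N297A and 16.9 in the Untreated mouse. Il12rb1 was 18.7 and 7.16, 16.9 and 10.6, 6.33 and 16.9 CPM, and in monocytes 15.7 and 8.15, 14.4 and 11.6, 6.95 and 14.4 CPM. The Untreated mouse and the first replicates of GA-aFuc and GITR/Syn GA-aFuc were thus the 3 highest for Il12rb1 in both cell types. The first replicates are the mice with Xist, the Untreated mouse is not. GA-aFuc differed from Untreated for Il12rb1 in macrophages by -0.43 ± 0.47 (edgeR adjusted p = 0.9998), and with the Xist split as a term by -1.03 (adjusted p = 0.0352). With that term the degrees of freedom of a class's test reached 14340. Over all genes 649 pairs then passed for this comparison, against 27 in the reported fit. Without GA-aFuc replicate 1, Il12rb1 and Il27 in macrophages differed from Untreated by -1.28 and -1.23. Such a fit leaves 1 GA-aFuc mouse, assumed to vary like the others, so only sizes are given. Il12b in macrophages then differed by -2.73 from Untreated and by -1.53 for both treatments against N297A and Untreated. With all mice these values were -0.95 and -0.64. Without GA-aFuc replicate 2, Il12rb1 differed from N297A by 1.496.

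The GA-aFuc response of monocytes was not shown to differ from that of macrophages for any of the 10 genes (0 called, 0% of all genes tested, edgeR interaction term). The interaction was 0.60 (interval -0.18 to 1.39) for Il27 and 0.57 (-0.44 to 1.57) for Il12rb2 on the log2 scale. Between GITR/Syn GA-aFuc and GA-aFuc the smallest p belonged to Il18 in dendritic cells, with a log2 difference of 1.49 ± 0.54 (edgeR adjusted p = 0.537). It rested on 4 and 6 UMIs in the GA-aFuc mice against 32 and 14.

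Of 40 other genes of these pathways, tested in 172 gene and class pairs, 2 pairs rose for GA-aFuc against N297A and 2 for both treatments against N297A and Untreated, all in monocytes, and none fell. Over all genes 0.144% and 0.131% of pairs passed. Most calls in monocytes were rises there too, 67 against 2 falls and 40 against 1. At an unadjusted p under 0.05 were 35 and 38 of the 172 pairs (20.3% and 22.1%, against 5.67% and 6.15% of all pairs). In the other 2 comparisons 0 of 172 passed in edgeR, with 21 and 23 pairs at an unadjusted p under 0.05 (12.2% and 13.4%, against 4.70% and 4.36% of all pairs) and 1 and 0 calls by DESeq2. Id2, a transcriptional regulator of lymphoid and dendritic cells, was at 170 and 174 CPM with GA-aFuc, 126 and 132 with GITR/Syn GA-aFuc, 71.9 with N297A and 81.4 in the Untreated mouse. It rose by 1.26 ± 0.21 against N297A (log2, edgeR adjusted p = 0.0198) and by 0.96 ± 0.15 for both treatments (adjusted p = 0.0159).

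Cish, an inhibitor of cytokine signalling induced by STAT5, was at 84.3 and 86.6, 70.9 and 62.3, 38.0 and 50.1 CPM in the same order of treatments. It rose by 1.17 ± 0.21 against N297A (edgeR adjusted p = 0.0304) and by 0.79 ± 0.15 for both treatments (adjusted p = 0.0469). For both genes the treatments do not overlap. Both were named because they passed, so this is no separate check. How often other genes separate in this way was not counted. With RLE scaling, mouse features only, equal cells per mouse or the top 1% of cells left out, Id2 passed for both treatments and Cish did not. Without GITR/Syn GA-aFuc replicate 1 neither passed for both treatments, and against N297A Id2 passed (adjusted p = 0.0395) and Cish did not. GA-aFuc against Untreated gave 1.08 for Id2 and 0.77 for Cish (adjusted p = 0.0898 and 0.303).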

How the data were processed

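Single-cell 3' RNA libraries with hashtags were made from CD45+ tumour cells. Per the file headers, Cell Ranger 9.0.0 made the deposited UMI counts of each barcode, on a joint GRCh38 and GRCm39 reference, per the submitters' processing notes. Treatment, cell type and cluster come from the authors' deposited annotation. The labels do not say how doublets were handled, and none were called. The 6 mice are 6 runs of sorted barcodes, and the leading hashtag matched the run in 10476 of 10476 cells. Library 1 counts were not analysed here.

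CPM are UMIs per 1e6 UMIs of the cells named. Counts were summed per mouse and class (at least 10 cells) and tested with edgeR 4.0.16 (filterByExpr, TMM, quasi-likelihood F test, 1 fit per class, 2 residual degrees of freedom), with Benjamini-Hochberg adjustment within class and contrast and a threshold of 0.05. CPM given for Id2 and Cish are TMM-scaled; all others are not. DESeq2 1.42.0 and other settings were alternatives, and the scripts were tested on simulated data. The GEO records do not say which mice share a cage or day. The p-values measure only the spread within the GA-aFuc and GITR/Syn GA-aFuc pairs, moderated over genes by edgeR.

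The genes, the pathway list and the comparisons were chosen with earlier results of these data known. Named genes are the 10 of the axis, list members past the threshold and the 3 most alike genes over clusters. Clusters singled out, and the settings that leave out cells or add the Xist split, were chosen after seeing the data.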

Additional observations from a re-analysis of the deposited data

Results flagged for a closer look

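Library 2 also holds 5815 barcodes of at least 500 UMIs outside the authors' annotation, which enter no comparison. In them Il12rb2 stood at 29.7 CPM, Il15 at 29.7 CPM and Il15ra at 18.98 CPM, above the free RNA of the same library at 21.9, 21.9 and 10.6 CPM, with counting intervals that do not overlap. The UMI counts of Il12rb2 and Il15, which are separate features, are equal in both sets, at 3242 and 162. The other 7 genes were not above free RNA by this measure, although Il18r1 was at 16.7 against 13.3 CPM. Il18 and Ebi3, for example, were at 20.9 and 21.6 CPM against 32.4 and 39.5 in free RNA.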

How the results depend on the processing

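For GA-aFuc against Untreated, members called went from 0 to 1 with no filter on low counts, with equal cells per mouse, with only the treatments compared in the fit, and with the Xist split as a term, and to 0 to 4 without single mice. Pathway pairs went from 0 to 1 with DESeq2, 2 with no filter, 1 with only the treatments compared and 1 with the Xist split, and to 0 to 3 without single mice. For GA-aFuc against N297A, members went from 0 to 1 with no filter and 0 to 3 without single mice. Pathway pairs went from 2 to 4 with DESeq2, 14 with no filter, 4 without the top 1% of cells, 5 without each mouse's cell of most Il12b UMIs, 10 with only the treatments compared and 8 with the Xist split, and to 2 to 12 without single mice. For GITR/Syn GA-aFuc against GA-aFuc, members went from 0 to 1 with no filter and 0 to 1 without single mice, and pathway pairs from 0 to 3 with no filter, 2 with the Xist split and 0 to 5 without single mice. For both treatments against N297A and Untreated, members went from 0 to 3 with no filter, 1 with the Xist split and 0 to 3 without single mice. Pathway pairs went from 2 to 1 with RLE size factors, 1 with mouse features only, 1 without the top 1% of cells, 12 with no filter, 5 with the Xist split and 5 to 11 without single mice, not always the pairs of the reported fit. The cause was not tested. The degrees of freedom of a class's test lay between 8.35 and 15.1 in the reported fit, and reached 54086 with no filter, 14202 without single mice and 14340 with the Xist split, where calls over all genes rose from 27 to 622, 833 and 649 for GA-aFuc against Untreated.

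Il12rb2 in monocytes kept its direction in every setting run and passed in 1 for GA-aFuc against N297A (no filter, adjusted p = 0.0418) and in 3 for both treatments (no filter, without either GA-aFuc mouse, adjusted p from 0.0316 to 0.0426). Il12b in dendritic cells, GA-aFuc against Untreated, reversed to 0.69 without each mouse's top cell, although 7 other settings called it lower (-2.499 with equal cells per mouse, -2.25 to -1.30 without single mice). Of 12 such changes with an unadjusted p under 0.05, this was the 1 reversal, and with the Xist split as a term all 12 kept their direction. The interaction count stayed at 0 in 13 settings. Of 90 recomputed levels 1 moved: Il2rb in NK cells, from 989 to 1109 CPM as the mean of each cell's CPM. No paired analysis was possible for comparisons with N297A or Untreated because each has 1 mouse. The Xist split separates replicate 1 from replicate 2 of both other treatments, so between these the fit with that term compares mice matched by the split. The labels name no such pairs. For GITR/Syn GA-aFuc against GA-aFuc that fit called 0 members and 2 pathway pairs. Over all genes it called 416 of 52716 pairs, against 26 in the reported fit. With 2, 2, 1 and 1 mice per treatment and 55 mregDC, small differences were not detectable.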

Other observations

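Outside mregDC, most Il12b UMIs again sat in few cells, counted here as cells with at least 3 UMIs, a threshold chosen after seeing the data. There were 13 such macrophages, from 6 mice and 6 clusters, and they held 179 of the 213 macrophage UMIs. They had C1qa, a macrophage complement gene, in 13 of 13 cells and Ccr7, a defining gene of mregDC, in 0 of 13. Their summed mregDC markers stood at 13.7 CPM, against 5.55 in macrophages without Il12b and 4799 in mregDC. Il27 in them was at 59.2 CPM, in 6 of 13 cells, against 11.9 in macrophages without Il12b, and Il15 at 13.7 against 40.4. By treatment there were 3 and 1 such cells with GA-aFuc, 3 and 2 with GITR/Syn GA-aFuc, 2 with N297A and 2 in the Untreated mouse.

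The Il12b-rich cells annotated as cDC1 and cDC2 were few, and their summed mregDC markers stood higher than in those macrophages. The 2 cDC1 with at least 3 UMIs had mregDC markers at 668 CPM, against 7.07 in cDC1 without Il12b, and the 1 cDC2 had 2736 against 75.2. Ccr7 alone made up 2647 CPM in that cDC2. It was found in 1 of the 2 cDC1, and Fscn1, another of the markers, in none of these cells. A further 3 monocytes from 2 mice held 36 of the 46 monocyte UMIs, with macrophage markers at 15907 CPM against 11333 in monocytes without Il12b.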
